A study of Mus musculus with 55 samples.

Results

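The libraries described here are 4 of granulocyte-monocyte progenitors (GMP) and 4 of megakaryocyte-erythroid progenitors (MEP) labelled Tet2-/-, 8 of the 55 bulk RNA-seq libraries of the series, and were chosen by population and genotype label alone. The series profiled sorted stem and progenitor populations of mouse bone marrow from WT and Tet2-deficient mice to learn which expression programs move when the methylcytosine dioxygenase TET2 is lost. The question taken up here is how far the granulocyte and the erythroid programs stand apart in the cells labelled Tet2-/-, gene by gene. The WT GMP and WT MEP libraries, 4 each, give the same contrast with Tet2 present, and 4 Tet2-/- libraries of the common myeloid progenitor (CMP) give levels for reference.

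The mice labelled Tet2-/- were Tet2 f/f animals carrying Mx1-Cre on the C57BL/6 background. Cre was induced with poly(I:C) at 4 weeks of age and the marrow was taken 16 weeks later. Mx1 is an interferon-inducible promoter that is active in many cell types besides blood cells, so deletion need not have been limited to blood cells. The controls are labelled WT, and whether they also received poly(I:C) is not given in the sources used here. GMP were gated as Lin-cKit+Sca1-CD34+CD16/32high and MEP as Lin-cKit+Sca1-CD34-CD16/32low, with 200 sorted cells per library according to the labels, and the RNA was amplified by a full-length SMART-seq protocol. The labels number the libraries 2 to 5. Because no source says that GMP and MEP of the same number came from the same mouse, they were treated as separate samples, and the p-values measure only the spread between these samples.

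GMP give rise to neutrophils and monocytes. They run on PU.1 (Spi1) and C/EBP factors, respond to G-CSF, M-CSF and GM-CSF, and load their azurophil granules with proteases and myeloperoxidase. MEP give rise to red cells and platelets and depend on GATA1, KLF1 and GFI1B, which switch on the erythropoietin receptor, red cell membrane proteins, haem synthesis and, later, the globins. GATA1 and PU.1 are known to oppose each other, so the 2 programs are usually read as alternatives.

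Depth was high and similar in both populations, at 58137206 to 99596506 counts in the Tet2-/- GMP libraries and 69168981 to 98282078 in the Tet2-/- MEP libraries. Levels below are CPM, which puts libraries of unequal depth on one scale, after TMM scaling of the 46 libraries of the count table, and fold changes are log2 of GMP over MEP. More genes had at least 1 count in GMP (19970 to 20964) than in MEP (17852 to 18804). Mitochondrial genes took 4.74 to 5.09% of the counts in GMP and 8.96 to 9.74% in MEP, and the 10 highest genes took 20.2 to 22.3% in GMP and 12.8 to 14.9% in MEP. The part of these differences in the results was not tested. In bulk samples, fewer cells of a type and less RNA per cell cannot be told apart. Among the 16 GMP and MEP libraries no pair was identical.

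Tet2 RNA did not follow the genotype label. Tet2 (ENSMUSG00000040943, chr3:133463679-133545139, - strand, mm10) stood at 60.5, 49.4, 39.7 and 42.5 CPM in the Tet2-/- GMP libraries 2 to 5 and at 38.8, 33.2, 37.0 and 41.7 CPM in the WT GMP libraries. In MEP it stood at 12.3, 13, 7.02 and 11.7 CPM in the libraries labelled Tet2-/- and at 13.7, 10.8, 14 and 10.8 CPM in WT. The labelled genotypes overlapped in both populations. The counts are summed over the whole gene, so a transcript that has lost an exon is still counted, and these values do not check the label. Tet2-/- therefore names the label throughout. Within the libraries labelled Tet2-/-, Tet2 RNA was 4.12-fold higher in GMP than in MEP (log2 2.04 ± 0.24 SE, edgeR adjusted p = 0.000113).

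Cd34 and the CD16/32 genes followed the sorting gate, which is a check of the populations and not a finding. Cd34 stood at 560 to 687 CPM in the Tet2-/- GMP libraries and at 6.78 to 29.3 CPM in MEP. Fcgr3 and Fcgr2b, which encode the CD16/32 antigens, stood at 149 to 290 and 96.2 to 125 CPM in GMP and at no more than 0.407 and 3.0 CPM in MEP. Kit, which both gates require, stood at 299 to 332 CPM in GMP and 218 to 270 CPM in MEP. Ly6a, which encodes the Sca1 antigen that both gates exclude, was low in both populations, at 0.569, 4.78, 1.28 and 1.19 CPM in GMP and 0.443, 0.121, 0.136 and 0.176 CPM in MEP. It was called higher in GMP all the same (log2 2.94 ± 0.84 SE, adjusted p = 0.0139), a call lost without GMP 3 and under the replicate block.

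The granulocyte and erythroid programs stood far apart in the libraries labelled Tet2-/-. Primary granule and GMP genes, the granule list below, summed to 42765 to 53255 CPM in GMP (median 44869). In MEP they summed to 1117 to 1555 CPM (median 1293). Globin and erythroid effector genes summed to 20384 to 26406 CPM in MEP (median 23704) and to 89.7 to 145 CPM in GMP (median 99.9). Most of this sum in every MEP library came from Car1 alone, and the globins added little, as their values below show. No GMP library came near a MEP library on either sum. The Tet2-/- CMP libraries lay between them on both, at 7320 to 8135 CPM for the granule list and 4353 to 8376 CPM for the erythroid genes.

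**Figure D1:**
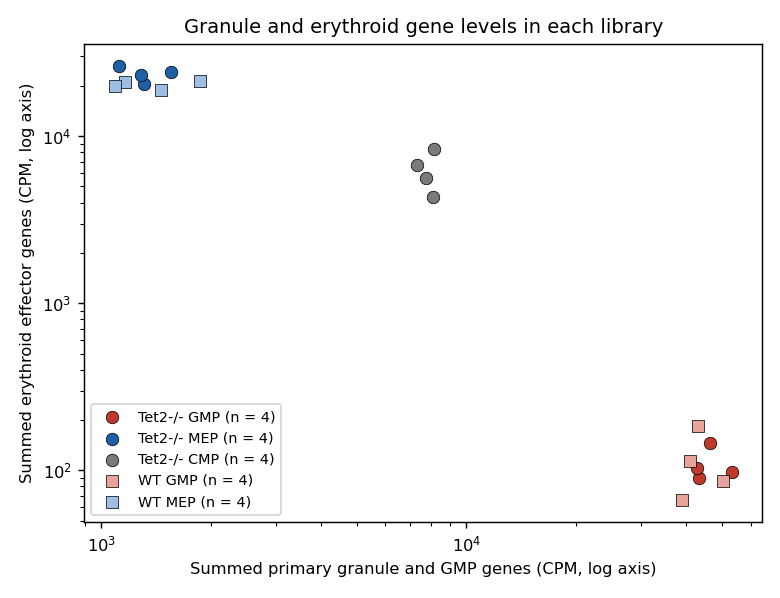
Summed level (CPM, log axes) of the primary granule and GMP genes against the globin and erythroid effector genes, 1 point per library, for Tet2-/- GMP, MEP and CMP and WT GMP and MEP (n = 4 each). Tet2-/- GMP sit at 42765 to 53255 CPM on the granule axis and Tet2-/- MEP at 1117 to 1555, with the WT libraries of each population beside them. The erythroid sum in Tet2-/- MEP comes mostly from Car1.

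Over all expressed genes, 16094 passed the low-count filter and 5376 of them (33.4%) were called between GMP and MEP at an adjusted p of at most 0.05 and a change of at least 2-fold. Of these, 3181 (19.8% of the genes tested) were higher in GMP and 2195 (13.6%) were higher in MEP. The GMP side also held the larger differences. At least 4-fold were 1903 genes on the GMP side and 627 on the MEP side, at least 32-fold were 502 and 191, and at least 256-fold were 99 and 49. The median size of a called difference was 2.43 on the log2 scale for genes higher in GMP and 1.41 for genes higher in MEP, while the median over all genes tested was 0.08 with a median SE of 0.33. Without TMM, on library totals alone, the split moved to 3692 higher and 1514 lower (70.9% higher against 59.2% with TMM) and the median of all genes rose by 0.19.

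Among protein-coding genes, 2761 of 12036 (22.9%) were higher in GMP and 1740 (14.5%) in MEP. Processed pseudogenes ran the other way, with 82 of 1451 higher in GMP and 240 higher in MEP. For 4663 genes (29.0%) every GMP library lay above every MEP library, and for 3469 (21.6%) every MEP library lay above every GMP library. For each such gene the exact two-sided permutation p is 0.0286, the smallest that 70 arrangements of 4 against 4 libraries allow.

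**Figure D2:**
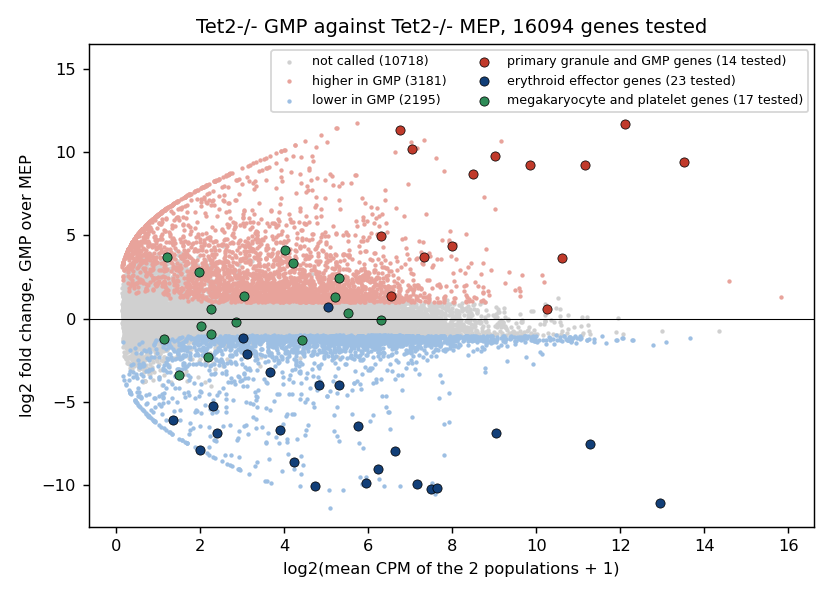
GMP over MEP (log2) in the libraries labelled Tet2-/- against mean level for the 16094 genes tested, with the primary granule, erythroid effector and megakaryocyte lists marked. Granule genes reach 11.69 and erythroid effector genes -11.08 while most genes lie near 0.08, the median.

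Libraries of a population resembled each other closely. Across genes, the correlation of log2 CPM ran from 0.978 to 0.983 among the Tet2-/- GMP libraries and from 0.972 to 0.975 among the Tet2-/- MEP libraries, against 0.847 to 0.881 between them. In the WT libraries the correlation between GMP and MEP ran from 0.861 to 0.888. Over the 500 most variable genes of the 16 libraries, the first principal component held 90.2% of the variance and put all GMP on one side and all MEP on the other. The second component held 3.61% and put all libraries labelled Tet2-/- on one side and all WT libraries on the other. These are descriptions across genes, which are not independent replicates.

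Genes of the granule list were higher in GMP, most of them by large factors. The list also holds genes of GMP outside the granule, such as Ms4a3 and Plac8. Of 14 genes listed, all 14 were tested, 13 were higher in GMP (19.8% of all genes were), and the proteoglycan core Srgn, which packs granule proteases and is used by many blood cells, was not called (log2 0.58). The median log2 difference of the list was 8.97, against 0.08 over all genes tested. The promoters of the myeloperoxidase gene and of 3 serine protease genes are shown because each carries AGGAAGT, a motif of the type bound by ETS factors such as PU.1. They are 300 bases each (250 before to 50 after the RefSeq start, GRCm38.p6, read 5' to 3' on the gene's strand), with the motif in capitals, at chr11:87793534-87793833 (Mpo, + strand), chr10:79886062-79886361 (Elane, + strand), chr10:79879417-79879716 (Prtn3, + strand) and chr14:56102525-56102824 (Ctsg, - strand).
Mpo: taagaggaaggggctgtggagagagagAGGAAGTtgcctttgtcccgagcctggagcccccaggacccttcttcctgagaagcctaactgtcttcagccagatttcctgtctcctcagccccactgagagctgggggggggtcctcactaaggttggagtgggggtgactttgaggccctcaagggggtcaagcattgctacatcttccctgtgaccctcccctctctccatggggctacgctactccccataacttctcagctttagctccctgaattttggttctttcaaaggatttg
Elane: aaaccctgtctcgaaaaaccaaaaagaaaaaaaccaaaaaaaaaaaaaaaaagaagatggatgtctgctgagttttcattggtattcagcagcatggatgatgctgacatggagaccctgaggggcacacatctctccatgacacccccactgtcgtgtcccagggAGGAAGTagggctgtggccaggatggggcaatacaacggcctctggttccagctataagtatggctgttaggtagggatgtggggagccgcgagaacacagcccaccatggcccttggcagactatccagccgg
Prtn3: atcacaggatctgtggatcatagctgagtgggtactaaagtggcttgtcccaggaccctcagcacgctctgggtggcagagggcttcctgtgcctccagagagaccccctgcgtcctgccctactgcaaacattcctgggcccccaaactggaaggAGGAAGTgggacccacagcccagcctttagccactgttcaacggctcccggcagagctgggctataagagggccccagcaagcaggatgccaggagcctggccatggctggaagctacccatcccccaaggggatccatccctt
Ctsg: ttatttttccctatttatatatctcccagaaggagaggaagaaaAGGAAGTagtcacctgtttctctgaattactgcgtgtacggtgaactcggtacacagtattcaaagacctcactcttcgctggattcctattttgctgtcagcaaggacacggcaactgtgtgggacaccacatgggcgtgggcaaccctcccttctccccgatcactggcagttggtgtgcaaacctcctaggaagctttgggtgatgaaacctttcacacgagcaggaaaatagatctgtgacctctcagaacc

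Mpo (ENSMUSG00000009350, chr11:87793581-87804413, + strand), which encodes myeloperoxidase, stood at 21952, 22429, 22548 and 26811 CPM in the GMP libraries 2 to 5 and at 30.3, 55.2, 34.1 and 9.25 CPM in the MEP libraries. All GMP libraries lay above all MEP libraries, and Mpo was detected in every MEP library, with the least in library 5. The difference was 693-fold (log2 9.44 ± 0.58 SE, adjusted p = 4.37e-06). Elane (ENSMUSG00000020125, chr10:79886247-79888215, + strand), neutrophil elastase, stood at 7945, 9829, 7483 and 10398 CPM in GMP and at 1.84, 6.60, 0.799 and 1.02 CPM in MEP. The groups did not overlap, and the difference was 3298-fold (log2 11.69 ± 0.85 SE, adjusted p = 9.84e-06).

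Proteinase 3 and cathepsin G followed the same order. Prtn3 (ENSMUSG00000057729, chr10:79874476-79883174, + strand) stood at 1608, 1982, 1769 and 1976 CPM in GMP and at 2.43, 6.10, 1.42 and 1.37 CPM in MEP (log2 9.26 ± 0.58 SE). Ctsg (ENSMUSG00000040314, chr14:56099881-56102574, - strand) stood at 4052, 4733, 4090 and 5322 CPM in GMP and at 8.55, 13.3, 5.95 and 0.592 CPM in MEP (log2 9.25 ± 0.88 SE). The MEP library with the least Mpo, number 5, also had the least Ctsg. Ms4a3, a membrane gene of early granulocyte-monocyte cells, stood at 915 to 1237 CPM in GMP and 0.422 to 1.96 CPM in MEP, and Hp, haptoglobin, at 158 to 275 CPM in GMP and 0 to 0.243 CPM in MEP. The smallest called difference of the list was that of Ctsc, the cathepsin that activates the granule proteases (log2 1.37 ± 0.11 SE).

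Of the 11 genes of the granule list with a RefSeq promoter, 6 (54.5%) hold AGGAAGT on either strand. Of these 11, 0 hold GATAAG, the motif type of GATA factors. Over all 27025 promoters AGGAAGT is in 10.7% and GATAAG in 8.58%. Among the 339 protein-coding genes with a RefSeq promoter and at least 32-fold higher in GMP, 71 (20.9%) hold AGGAAGT. Among the 120 with a promoter and at least 32-fold lower, 8 (6.67%) do. Neither motif contains the other. The motifs and the promoters shown were chosen after the values and sequences were seen, and a match is a description, not a binding site or a cause.

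Genes of later neutrophil granules summed to far less than the granule list, and those called were on the GMP side. Of 18 listed, 10 passed the filter, which they could do through GMP alone, 8 of those were higher in GMP (19.8% of all genes were), and S100a9 and Camp were not called. The list summed to 42.2 to 88.8 CPM in GMP and 0.0607 to 1.37 CPM in MEP. S100a8, an alarmin of mature neutrophils, stood at 4.34, 16, 8.78 and 19.2 CPM in GMP and at 0.299, 0, 0.256 and 0.189 CPM in MEP. Lcn2, which encodes the iron-carrier-binding lipocalin of specific granules, stood at 4.68, 17.9, 8.51 and 12.8 CPM in GMP and at 0 in all MEP libraries, at least 1129-fold higher against a floor of 3 counts over the group. The chemokine receptor Cxcr2 stood at 13.3 to 26.5 CPM in GMP and at no more than 0.0607 CPM in MEP. The 8 genes not tested (Cd177, Chil3, Itgb2l, Ltf, Ly6g, Mmp9, Ngp and Retnlg) were at or below 2.85 CPM in every GMP library, and Ltf, Cd177, Itgb2l and Mmp9 were at 0 in all of them.

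Monocyte and macrophage genes were on the GMP side as well. Of 16 listed, 12 passed the filter, which genes at or near 0 in MEP could do through GMP alone. Those 12 were higher in GMP (19.8% of all genes were), with a median log2 difference of 6.79, and C1qa, C1qb and Fcgr1 were among those too low to test. Csf1r (ENSMUSG00000024621, chr18:61100598-61132149, + strand), the M-CSF receptor, stood at 100, 129, 90.6 and 98.5 CPM in GMP and at 0, 0.0152, 0 and 0 CPM in MEP. It was detected in 1 MEP library only and had the largest fitted log2 difference among the named genes with counts in both populations (11.76 ± 0.44 SE, adjusted p = 2.08e-07). F13a1, the coagulation factor subunit made by monocytes and platelets, stood at 242 to 353 CPM in GMP and at 0 to 0.425 CPM in MEP. Cd14, the lipopolysaccharide co-receptor, stood at 11.3, 21.9, 14 and 36.4 CPM in GMP and at 0 in all MEP libraries, at least 2154-fold higher. Ccr2, the receptor that brings monocytes out of the marrow, varied within GMP (263, 63.6, 187 and 78.5 CPM) and was at 0.182 to 7.76 CPM in MEP. The fractalkine receptor Cx3cr1 was higher in GMP as well (log2 2.90, adjusted p = 0.0307), but the call was lost when any of 6 libraries was left out, all but MEP 3 and MEP 5 (adjusted p up to 0.0696).

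The receptors for myeloid cytokines and microbial products were all higher in GMP, 10 of 10 listed (19.8% of all genes were), with a median log2 difference of 6.20. Csf3r, the G-CSF receptor, stood at 136, 191, 146 and 157 CPM in GMP and at 2.44, 3.06, 1.97 and 0.227 CPM in MEP (log2 6.27 ± 0.65 SE). Flt3, the receptor tyrosine kinase of early progenitors, stood at 16.6 to 36.1 CPM in GMP and 0.0607 to 0.505 CPM in MEP. The smallest difference was that of the GM-CSF receptor alpha chain Csf2ra, at 11.9 to 19.3 CPM in GMP and 0.859 to 2.37 CPM in MEP (log2 3.38). Csf2rb and Csf2rb2 are near-identical copies whose reads the counting may have split, so their separate values (log2 6.14 and 7.92) are uncertain.

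Myeloid transcription factors followed the same order, 7 of 10 listed being higher in GMP (19.8% of all genes were), 2 not called (Klf4 and Cebpd) and Cebpb too low to test. Spi1 (ENSMUSG00000002111, chr2:91082390-91115756, + strand), which encodes PU.1, stood at 32.6, 34.7, 36.0 and 36.6 CPM in GMP and at 0.980, 0.925, 0.181 and 0.668 CPM in MEP (log2 5.53 ± 0.47 SE, adjusted p = 2.03e-05). The GMP values lay close together, and no MEP library reached 1 CPM. Cebpa, which starts the granulocyte fate, stood at 30.7, 52.0, 39 and 31.6 CPM in GMP and at 1.02, 0.759, 0.392 and 0.290 CPM in MEP (log2 5.82 ± 0.45 SE). Irf8, the factor of the monocyte branch, was spread within GMP (96.8, 263, 91.1 and 217 CPM) but at no more than 1.5 CPM in MEP. Gfi1, a repressor of the granulocyte branch, stood at 18.4 to 29.3 CPM in GMP and was detected in 1 of 4 MEP libraries at 0.0504 CPM. Cebpe, which drives the later granules, stood at 28.1 to 54.8 CPM in GMP and at 0 in all MEP libraries, at least 4464-fold higher.

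The erythroid effector genes formed the opposite pole. Of 25 listed, 24 were in the table, 23 were tested and 21 were higher in MEP (13.6% of all genes were), with a median log2 difference of -6.89. Hbb-bs and Epb41 were not called, and the anion exchanger Slc4a1 was at 0 in every MEP library. Promoters of 4 erythroid genes are shown because each carries GATAAG or its reverse complement CTTATC, printed in capitals. They are 300-base RefSeq windows of GRCm38.p6 as above, at chr8:84901732-84902031 (Klf1, + strand), chr9:21963527-21963826 (Epor, - strand), chr6:41704276-41704575 (Kel, - strand) and chr4:134864286-134864585 (Rhd, + strand).
Klf1: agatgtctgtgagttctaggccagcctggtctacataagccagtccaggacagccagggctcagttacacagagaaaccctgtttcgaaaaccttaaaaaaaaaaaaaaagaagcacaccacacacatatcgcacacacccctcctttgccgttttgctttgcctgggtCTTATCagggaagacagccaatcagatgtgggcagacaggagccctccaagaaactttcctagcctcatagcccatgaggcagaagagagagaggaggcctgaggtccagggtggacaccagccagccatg
Epor: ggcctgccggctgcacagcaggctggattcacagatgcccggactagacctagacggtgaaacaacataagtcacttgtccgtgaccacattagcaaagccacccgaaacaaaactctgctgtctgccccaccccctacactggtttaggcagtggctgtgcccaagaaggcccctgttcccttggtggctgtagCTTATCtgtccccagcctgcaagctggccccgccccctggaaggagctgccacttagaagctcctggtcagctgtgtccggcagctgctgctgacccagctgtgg
Kel: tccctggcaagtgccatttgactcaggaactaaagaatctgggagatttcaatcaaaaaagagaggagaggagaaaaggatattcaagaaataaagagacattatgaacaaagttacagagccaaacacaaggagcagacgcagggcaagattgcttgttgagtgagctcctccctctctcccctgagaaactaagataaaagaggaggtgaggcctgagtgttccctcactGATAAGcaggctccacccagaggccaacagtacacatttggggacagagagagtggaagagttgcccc
Rhd: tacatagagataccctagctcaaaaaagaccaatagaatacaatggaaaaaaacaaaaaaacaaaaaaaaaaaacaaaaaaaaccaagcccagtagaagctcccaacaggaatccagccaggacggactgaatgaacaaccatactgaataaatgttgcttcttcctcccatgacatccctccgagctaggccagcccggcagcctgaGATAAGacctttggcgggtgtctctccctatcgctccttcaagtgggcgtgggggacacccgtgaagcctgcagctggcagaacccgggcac

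Of the 18 erythroid effector genes with a RefSeq promoter, 11 (61.1%) hold GATAAG on either strand and 0 hold AGGAAGT, against 8.58% and 10.7% over all promoters and 6.45% and 10.8% over the 9518 promoters of protein-coding genes tested. Neither motif kept to one side. GATAAG is also in 2 of 7 receptor promoters (28.6%) and 2 of 10 monocyte promoters, and AGGAAGT is in 2 of 17 promoters of haem and iron genes (11.8%). Of the 120 protein-coding genes with a RefSeq promoter and at least 32-fold lower in GMP, 25 (20.8%) hold GATAAG. Of the 339 with a promoter and at least 32-fold higher, 34 (10.0%) do. Car1 (ENSMUSG00000027556, chr3:14766216-14808368, - strand), carbonic anhydrase 1 of the red cell, stood at 13488, 16382, 14240 and 18451 CPM in MEP and at 4.71, 19.1, 2.82 and 3.82 CPM in GMP. It was 2165-fold lower in GMP (log2 -11.08 ± 0.82 SE, adjusted p = 1.01e-05). GMP library 3 held the most Car1 of the GMP libraries and remained far below every MEP library.

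Red cell surface genes were high in MEP and at or near 0 in GMP. Rhd (ENSMUSG00000028825, chr4:134864536-134896172, + strand), the Rh blood group antigen, stood at 341, 418, 439 and 392 CPM in MEP and at 0.436, 0.547, 0.117 and 0.271 CPM in GMP (log2 -10.14 ± 0.41 SE). Kel (ENSMUSG00000029866, chr6:41686330-41704339, - strand), the Kell antigen, stood at 104, 113, 145 and 122 CPM in MEP and at 0, 0.0805, 0.103 and 0.271 CPM in GMP (log2 -9.90 ± 0.69 SE). Epor (ENSMUSG00000006235, chr9:21958897-21963506, - strand), the erythropoietin receptor, stood at 104, 103, 98.6 and 112 CPM in MEP and at 1.26, 0.580, 2.47 and 0.664 CPM in GMP (log2 -6.44 ± 0.49 SE). For these 3 genes all MEP libraries lay above all GMP libraries. Rhag, Ermap and Add2, further genes of the red cell membrane and its skeleton, had log2 differences between -10.23 and -9.94. Epb42, another membrane skeleton gene, was at 2.31 to 10.3 CPM in MEP and at 0 in all GMP libraries, at least 619-fold higher in MEP.

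The globins were called lower in GMP for Hba-a1, Hba-a2 and Hbb-bt and not called for Hbb-bs. Hba-a1 stood at 59.1, 43.1, 47.5 and 55.4 CPM in MEP and at 3.90, 8.36, 0.602 and 0.962 CPM in GMP (log2 -3.96 ± 0.76 SE, adjusted p = 0.00215). Hbb-bs stood at 9.99, 13.8, 6.59 and 8.62 CPM in MEP and at 6.44, 10.8, 0.411 and 0.610 CPM in GMP, where library 3 lay within the MEP range (log2 -1.17, adjusted p = 0.319). Hbb-bt was called lower in GMP (log2 -2.11, adjusted p = 0.0400), but the call was lost on library totals and when any of 6 libraries was left out (GMP 2, 4 and 5 and MEP 2, 3 and 5; adjusted p up to 0.0834). The alpha and the beta globin genes each come as near-identical copies, so the split between copies is uncertain. In GMP libraries 2 and 3 the globins were higher than in 4 and 5 for each of Hba-a1, Hba-a2, Hbb-bs and Hbb-bt.

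Genes of haem synthesis and iron handling leaned to MEP by smaller margins. Of 22 listed and tested, 11 were higher in MEP (13.6% of all genes were) and 11 were not called, with a median log2 difference of -1.02. Cpox, Alad and Urod, enzymes of the porphyrin pathway, had log2 differences of -3.89, -2.98 and -2.27. Alad stood at 724, 929, 895 and 557 CPM in MEP and at 112, 112, 117 and 73.2 CPM in GMP. Tfrc, the transferrin receptor, stood at 326 to 454 CPM in MEP and 98.9 to 150 CPM in GMP (log2 -1.64). Alas2, the rate-limiting enzyme of haem synthesis in red cells, was at no more than 0.743 CPM in any of the 8 libraries. Fth1, ferritin heavy chain, was scattered in MEP (1298, 312, 173 and 548 CPM) around its GMP level (621, 559, 690 and 721 CPM). The calls of Fech, Uros and Abcb10 were lost on library totals (log2 -0.93, -0.92 and -0.89) and when a single library was left out, GMP 2 or MEP 2 for Fech and Abcb10 and GMP 3 or MEP 4 for Uros.

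Transcription factors of the erythroid and megakaryocytic fates split into 2 groups. Of 17 listed and tested, 10 were higher in MEP (13.6% of all genes were), 2 were higher in GMP (19.8% of all genes were) and 5 were not called. Gata1 (ENSMUSG00000031162, chrX:7959260-7978071, - strand) stood at 235, 285, 279 and 227 CPM in MEP and at 3.40, 0.805, 9.64 and 3.97 CPM in GMP (log2 -5.91 ± 0.66 SE, adjusted p = 9.32e-05). Klf1 (ENSMUSG00000054191, chr8:84901928-84905291, + strand), the activator of globin and red cell genes, stood at 48.6, 25.3, 25.2 and 41.5 CPM in MEP and at 0.304, 0.950, 0.983 and 0.542 CPM in GMP (log2 -5.70 ± 0.47 SE). Gfi1b, the repressor paired with Gfi1 on the erythroid side, stood at 345 to 533 CPM in MEP and 1.53 to 10.9 CPM in GMP (log2 -6.30 ± 0.57 SE). The groups did not overlap for any of these 3. Tal1, Nfia, Zfpm1 and Bcl11a were also higher in MEP, with log2 differences between -3.26 and -2.13.

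The factors of this list called higher in GMP were Fli1 and Gata2. Fli1, an ETS factor of megakaryocytes and stem cells, stood at 112, 102, 104 and 111 CPM in GMP and at 16.6, 12.7, 6.06 and 6.12 CPM in MEP (log2 3.29 ± 0.34 SE). Gata2, the GATA factor of earlier progenitors and mast cells, stood at 13.3, 10.7, 26.3 and 12.3 CPM in GMP and at 5.21, 2.37, 3.03 and 4.33 CPM in MEP (log2 1.98 ± 0.38 SE). Both were higher in GMP in every pair of libraries. Nfe2, Ldb1, Zbtb7a, E2f2 and Sox6 were not called, and the calls of E2f4 and Cbfa2t3 (log2 -1.18 and -1.14) were lost on library totals.

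**Figure D3:**
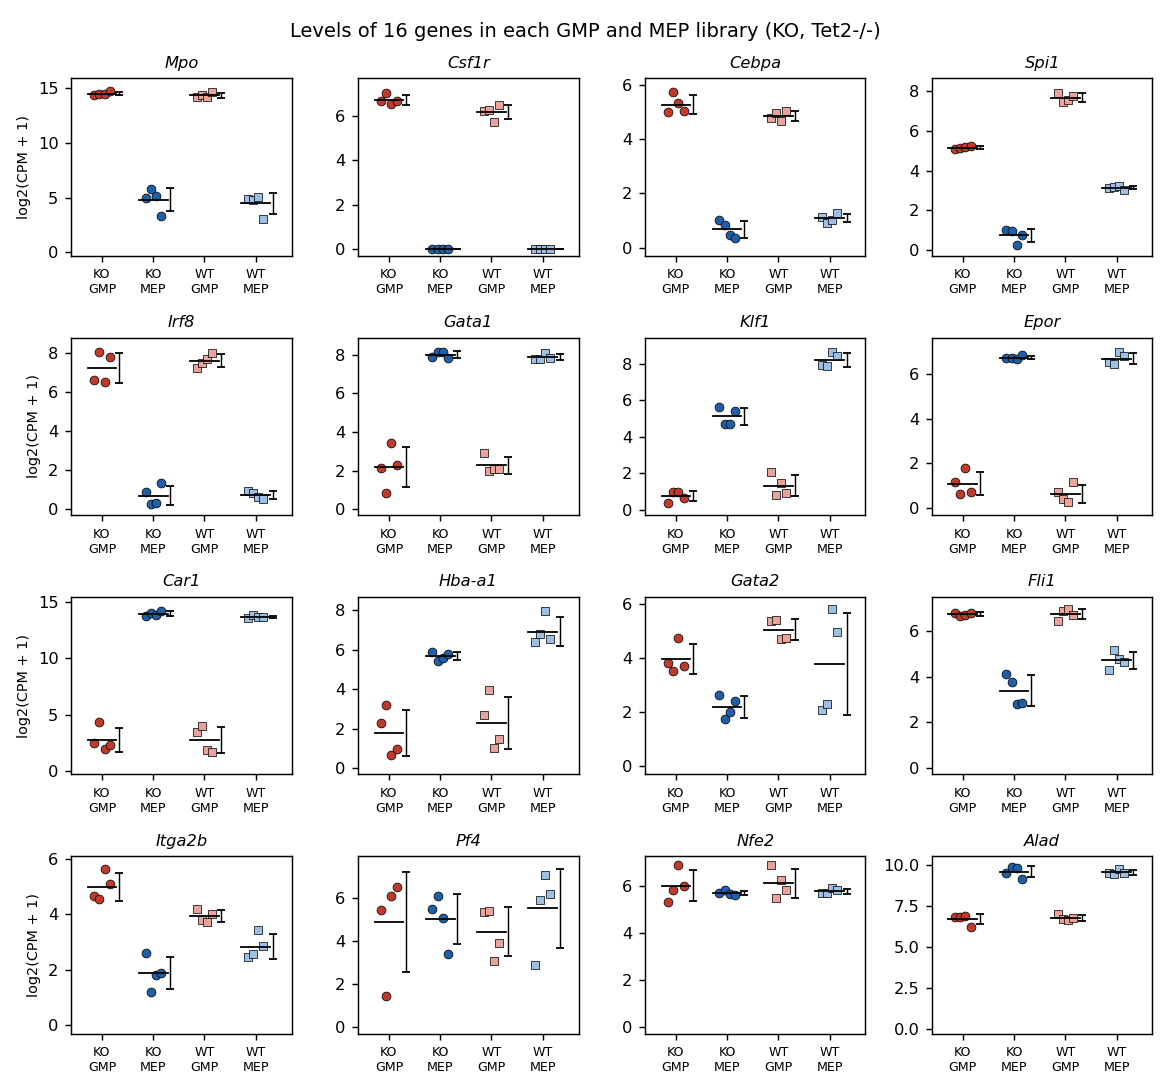
Level of 16 genes, log2(CPM + 1), in each Tet2-/- and WT GMP and MEP library, with the line at the mean and the bar at mean ± 1 SD (n = 4 per group). Mpo, Csf1r, Cebpa, Spi1 and Irf8 are high in GMP, Gata1, Klf1, Epor, Car1 and Hba-a1 in MEP, while Pf4 and Nfe2 overlap between the populations.

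Megakaryocyte and platelet genes were called in both directions, at shares near those over all genes. Of 21 listed, 17 were tested, 4 were higher in GMP (Itga2b, Selp and Mef2c among them), 3 were higher in MEP (Gp5, Gp1ba and F2r) and 10 were not called, against 19.8% higher in GMP and 13.6% higher in MEP over all genes, with a median log2 difference of 0.33 (-0.03 to 0.74 when 1 library was left out). The list summed to 229 to 452 CPM in GMP, 130 to 289 CPM in MEP and 1163 to 2301 CPM in CMP. Pf4, platelet factor 4, stood at 43.0, 1.79, 69.1 and 91.6 CPM in GMP and at 44.9, 67.6, 33.3 and 9.57 CPM in MEP. The populations overlapped fully, with the lowest value in a GMP library. Gp5, a subunit of the von Willebrand factor receptor, stood at 0.0644 to 0.734 CPM in GMP and 2.65 to 4.19 CPM in MEP (log2 -3.41, adjusted p = 0.00584). Itga2b, the integrin chain CD41, stood at 24.4, 22.3, 48.3 and 32.9 CPM in GMP and at 5.05, 1.30, 2.52 and 2.68 CPM in MEP (log2 3.37 ± 0.44 SE). The call of F2r (log2 -1.28) was lost under the replicate block, on library totals and in 7 of 8 fits that left out 1 library.

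Traces of the opposite program were small in the libraries labelled Tet2-/-. Each MEP library held 2.41 to 3.35% of the mean GMP sum of the granule list and 0.708 to 1.45% of that of monocyte genes. Each GMP library held 0.381 to 0.617% of the mean MEP sum of erythroid effector genes, a MEP sum that came mostly from Car1. In WT the same shares were 2.51 to 4.29%, 0.523 to 0.898% and 0.326 to 0.906%. The ranges of the labelled genotypes overlapped for all 3 shares. Most of the sum of the granule list in MEP came from Srgn at 853 to 1065 CPM and Plac8, a gene of immature myeloid cells, at 171 to 289 CPM.

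Some markers of other blood cells were near the floor, while Hdc, Cpa3 and Cd79b stood well above it in GMP. Over all genes, 19.8% were higher in GMP and 13.6% in MEP. For each list below, genes at or near 0 in MEP could pass the filter through GMP alone. Of 13 mast cell, basophil and eosinophil genes, 5 were tested and 4 were higher in GMP, among them the histidine decarboxylase Hdc (200 to 289 CPM in GMP, 0.0603 to 2.08 CPM in MEP) and the carboxypeptidase Cpa3 (74.4 to 193 CPM in GMP, 8.01 to 18.9 CPM in MEP). Their sum was 374 to 540 CPM in GMP and 8.84 to 21.6 CPM in MEP, and the granule proteases Tpsab1 and Prss34 were at 0 in all 8 libraries. The call of Ms4a2, the beta chain of the IgE receptor, was lost when any library but MEP 5 was left out. Of 11 B cell genes, 4 were tested and 2 (Cd79b and Rag2) were higher in GMP. Cd79b stood at 41.5 to 51.4 CPM in GMP, while Cd79a was at no more than 0.124 CPM in any of the 8 Tet2-/- GMP and MEP libraries. Of 10 T and NK cell genes, 4 were tested and not called, and Cd3e was at no more than 0.0569 CPM in the same libraries. Of 10 dendritic cell genes, 5 were tested, Tcf4 was higher in GMP and H2-Ab1 higher in MEP (log2 -1.14), a call lost on library totals and without MEP 3. The part of these cells in the results was not tested.

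Genes of stem cells summed to 39.3 to 72.6 CPM in GMP and 12.3 to 36.9 CPM in MEP. Of 9 listed, 8 were tested, Meis1, Procr and Fgd5 were higher in GMP, and Slamf1, which encodes CD150, was higher in MEP, against 19.8% and 13.6% over all genes. Slamf1 stood at 9.12, 16.4, 7.38 and 3.87 CPM in MEP and at 1.25, 0.0644, 0 and 0.746 CPM in GMP (log2 -4.15 ± 1.19 SE, adjusted p = 0.0162). Meis1, a homeobox factor of immature cells, stood at 20 to 52.2 CPM in GMP and 4.92 to 13.8 CPM in MEP (log2 2.00 ± 0.39 SE). The call of Procr was lost under the replicate block and without GMP 5.

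Cell cycle genes were called in both directions, at shares near or below those over all genes. Of 28 listed and tested, 6 were higher in GMP (19.8% of all genes were), 2 were higher in MEP (13.6% of all genes were) and 20 were not called, with a median log2 difference of 0.28. Their sum was 6790 to 7366 CPM in GMP and 5577 to 6204 CPM in MEP. Cdc20, the activator of the anaphase-promoting complex, was higher in GMP (217 to 322 CPM against 32.8 to 81.6 CPM), as was the replication helicase subunit Mcm6 (589 to 682 CPM against 181 to 255 CPM). Ccne1, cyclin E1, was higher in MEP (27.4 to 39.9 CPM against 3.86 to 5.67 CPM, log2 -2.77 ± 0.21 SE). Mki67 stood at 180 to 223 CPM in GMP and 198 to 256 CPM in MEP and was not called. Among the calls, Pcna was lost on library totals, and Mcm3, Ccnd3 and Plk1 each when a single library was left out (GMP 3 or MEP 5 for Mcm3, GMP 3 for Ccnd3 and GMP 5 for Plk1).

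Interferon-responsive genes were called in both directions too, at shares near or below those over all genes. Of 25 listed, 24 were tested, 2 were higher in GMP (19.8% of all genes were), 3 were higher in MEP (13.6% of all genes were) and 19 were not called, with a median log2 difference of 0.22. The largest was that of Tmem173, which encodes the cytosolic DNA sensor adapter STING, at 67.6, 68.7, 80.9 and 66.4 CPM in GMP and at 1.44, 2.43, 2.76 and 1.34 CPM in MEP (log2 5.07 ± 0.28 SE, adjusted p = 2.82e-06). Gbp3, a guanylate-binding protein, was higher in GMP by 2.54. Usp18, which removes ISG15 from proteins, Irgm1, an immunity-related GTPase, and Irf7, the interferon amplifier, were higher in MEP, with log2 values of -2.54, -1.44 and -1.37.

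Enzymes of DNA methylation were higher in GMP for 4 of 7 genes (19.8% of all genes were) and not called for 3 (Tet3, Dnmt3b and Uhrf1). Dnmt3a, a de novo methyltransferase, stood at 44.4, 94.8, 41.5 and 49.0 CPM in GMP and at 10.2, 12.4, 8.85 and 6.05 CPM in MEP (log2 2.54 ± 0.33 SE). Tet1, a dioxygenase of the same family as TET2, stood at 18.1 to 29.7 CPM in GMP and 7.66 to 10.8 CPM in MEP (log2 1.29 ± 0.22 SE). The maintenance methyltransferase Dnmt1 was higher by 1.20.

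**Figure D4:**
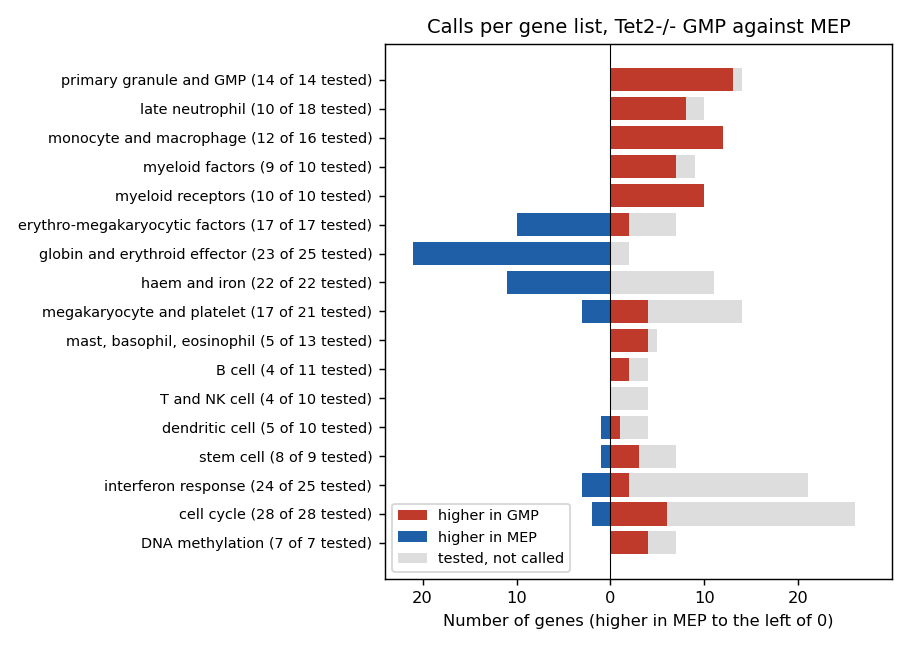
Number of genes of each of 17 lists that were higher in GMP, higher in MEP, or tested and not called in the libraries labelled Tet2-/-, with the number tested beside each list. Granule, monocyte and receptor lists are called toward GMP alone, the erythroid effector list toward MEP alone (21 of 23 tested), and the megakaryocyte list in both directions (4 and 3). Over all genes tested, 19.8% were higher in GMP and 13.6% in MEP, and the megakaryocyte counts lie near these shares.

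The largest differences among well-expressed genes included listed granule, monocyte and erythroid genes as well as genes of no list. Among protein-coding genes called with a mean of at least 100 CPM in the higher population and no overlap between the populations, 353 were eligible on the GMP side and 638 on the MEP side. The first 12 on the GMP side were Csf1r, Elane, Hp, F13a1, Ly6c2, Anxa3, Hk3, Igsf6, Fcgr3, Ms4a3, Mpo and Prtn3, with log2 differences from 11.76 to 9.26. Ly6c2, a surface marker of monocytes, stood at 873 to 1449 CPM in GMP and 0.256 to 0.920 CPM in MEP, and Anxa3, an annexin of neutrophil granules, at 236 to 299 CPM against 0 to 0.243 CPM. The first 12 on the MEP side were Car1, Slc38a5, Rhag, Rhd, Cldn13, Tspo2, Slc25a21, Ermap, Kel, Mt2, Sphk1 and Trib2, from -11.08 to -9.53. The amino acid carrier Slc38a5 stood at 296 to 505 CPM in MEP and 0 to 0.580 CPM in GMP, and the metallothionein Mt2 at 311 to 408 CPM against 0.0587 to 0.837 CPM.

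The same contrast was fitted in WT. There, 4899 of 16094 genes tested (30.4%) were called, of which 2896 (18.0%) were higher in GMP and 2003 (12.4%) in MEP. Of the genes called higher in Tet2-/- GMP, 2141 were also called in WT (67.3% of the Tet2-/- calls and 73.9% of the WT calls), and of those called lower, 1497 (68.2% and 74.7%). On library totals the WT median rose by 0.24. The median log2 difference was 8.75 for the granule list, 6.91 for the monocyte list, 5.66 for the receptor list and -7.06 for the erythroid effector list in WT, against 8.97, 6.79, 6.20 and -6.89 in the libraries labelled Tet2-/-. In WT 13 granule, 12 monocyte and 10 receptor genes were higher in GMP and 21 erythroid effector genes in MEP, the same numbers as in Tet2-/-. The megakaryocyte list had a median of -0.81 over 19 genes tested in WT against 0.33 over 17 in Tet2-/-, with 4 genes higher in GMP and 6 higher in MEP in WT, and its genes had a median difference of contrasts of 1.20. The erythro-megakaryocytic factors had a median of -1.77 in WT against -1.18 over the same 17 genes, with a median difference of contrasts of 0.31. These differences between list medians were not tested. Across the 15352 genes tested in both genotypes the log2 differences had a Pearson correlation of 0.893 and the same sign for 12958 genes. The Tet2-/- and WT contrasts share no libraries, and these values are a description across genes.

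Few genes were called for a difference between the genotypes in the ratio of GMP to MEP. A test of the difference of the 2 contrasts, fitted on the 16 libraries, called 195 of 18065 genes (1.08%), 122 (0.675%) with a higher and 73 (0.404%) with a lower ratio of GMP to MEP in Tet2-/- than in WT. The sign gives the direction of the ratio and not the width of the gap, since 31 of the 73 were called higher in MEP in Tet2-/-. Of 238 genes of the lists that were tested, 2 were called, among them the integrin Itga2b. Its call (log2 2.30 ± 0.53 SE, adjusted p = 0.0454) was lost in 15 of 16 fits that left out 1 library. Its adjusted p lay between 0.00137 and 0.125 over the alternatives.

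The number of calls depended on single libraries. Leaving out 1 of the 16 libraries at a time gave 51 to 330 genes with a higher and 29 to 104 with a lower ratio in Tet2-/-, and 72 of the 195 genes were called in all 16 of these fits (46 and 26). The count of higher ratios was 330 without Tet2-/- MEP 2 and 51 to 77 without any of Tet2-/- GMP 3, 4 or 5, Tet2-/- MEP 3, WT GMP 2 to 5 or WT MEP 2 or 4. That of lower ratios was 29 to 48 without any of Tet2-/- GMP 2, 4 or 5, WT GMP 2 or 3 or WT MEP 3. With each replicate number within a genotype as a block, which pairs GMP and MEP of the same number, edgeR called 4 and 0. Without the block, 914 and 511 had an unadjusted p under 0.05 and DESeq2 called 366 and 267. For genes with a higher ratio the median of the mean levels was lowest in Tet2-/- MEP, at 9.18 CPM, against 31.7 CPM in Tet2-/- GMP, 53.5 CPM in WT MEP and 41.2 CPM in WT GMP. They were also short, with a median longest transcript of 1810.5 nt and a GC content of 53.3% over 110 protein-coding genes, against 3314 nt and 49.6% over all tested. The 68 protein-coding genes with a lower ratio stood at 3335.5 nt and 50.2%. The part of transcript length in these calls was not tested.

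For 9 genes the contrast was called in opposite directions in the 2 genotypes (Apoe, Rfng, Fam216a, Plbd2, Ndufab1, Lsm4, Rps2, Ndufab1-ps and Nudt8), all named after their values were seen. The difference of contrasts was not called for Ndufab1-ps (adjusted p = 0.0564) or Nudt8 (adjusted p = 0.0575). In Tet2-/- alone, Ndufab1-ps and Nudt8 each lost the call in 7 of 12 alternatives and Fam216a in 5 of 12. In WT, Rps2, Ndufab1, Fam216a, Ndufab1-ps and Lsm4 lay near the 2-fold cut, with log2 values between -1.09 and -1.01. The WT median rose by 0.08 with RLE scaling and by 0.24 on library totals, so the count of 9 may depend on the scaling. Apoe, the lipid carrier apolipoprotein E, stood at 28.8, 33.2, 61.3 and 29.1 CPM in Tet2-/- GMP and 20, 6.34, 3.09 and 7.44 CPM in Tet2-/- MEP, but at 72.7, 14.6, 63.4 and 45.2 CPM in WT GMP and 158, 186, 208 and 386 CPM in WT MEP. All WT MEP libraries lay above all Tet2-/- MEP libraries. The difference of contrasts was 4.30 (adjusted p = 0.0139), and it kept its call in all 16 fits that left out 1 library and lost it under the replicate block (adjusted p = 0.0688). Plbd2, a lysosomal phospholipase-like protein, went the other way, at 7.32, 5.10, 9.19 and 7.50 CPM in Tet2-/- GMP against 64.5, 77.8, 34.7 and 53.2 CPM in WT GMP, with MEP at 14.4 to 17.8 and 14.9 to 21.7 CPM (difference -2.85, adjusted p = 0.00108). It was lost under the block alone (adjusted p = 0.0517). Rps2 and Ndufab1 have the processed pseudogenes Rps2-ps13 and Ndufab1-ps, and the counting may have split reads between them, so their values are uncertain.

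**Figure D5:**
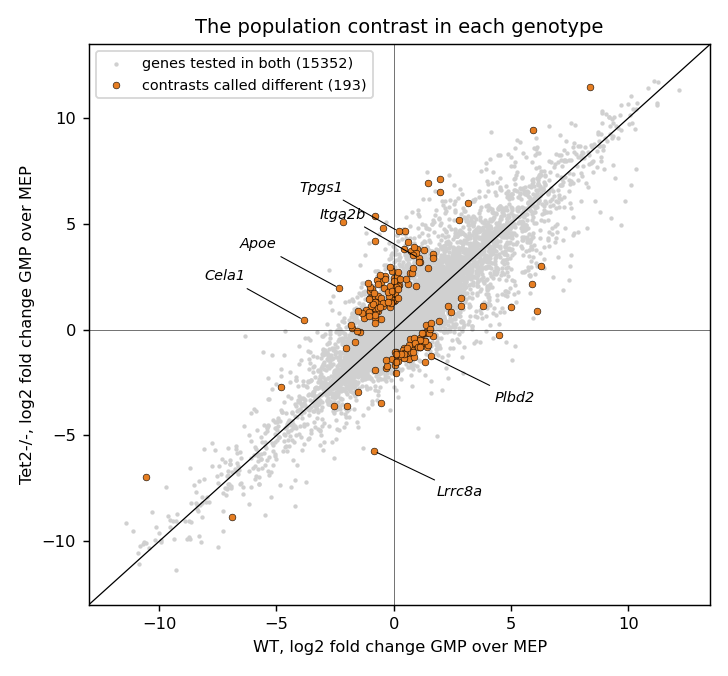
GMP over MEP (log2) in WT against the same in the libraries labelled Tet2-/- for the 15352 genes tested in both, with the 193 of them called different between genotypes marked. Most genes lie along the diagonal at both poles, and Apoe, Cela1, Plbd2 and Lrrc8a are among those labelled away from it.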

How the data were processed

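Total RNA of sorted populations was amplified and sequenced by the authors. The submitters' processing notes name Trim Galore 0.6.7 (the methods name another release), HISAT2 and DESeq2, and both mm10 and mm9, of which the methods give mm10. The counting program and annotation are not given in the sources used here. The deposited values are whole-number counts of reads per gene, not normalized, for 55421 genes in 46 libraries, and 55240 of the Ensembl IDs were found in GENCODE vM21, from which coordinates were taken. The sorted cell number differs between the labels and the methods.

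Counts of the 8 libraries were tested with edgeR 4.0.16 (R 4.3.3): filterByExpr on the 2 groups, TMM scaling, a quasi-likelihood fit, Benjamini-Hochberg adjustment over all genes tested, and calls at an adjusted p of at most 0.05 and at least 2-fold. A gene at or near 0 in 1 population could pass the filter through the other population alone. The prior count of the log2 values was 2. WT was fitted the same way, and the difference of the contrasts came from 1 fit of 16 libraries. A fold against a group at 0 is a bound against 3 counts over the group. The fits were tested on simulated data, and no result of that is given here. Levels are CPM, plotted as log2(CPM + 1), and 119 symbols occur more than once.

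The text names the genes of 18 lists (270 genes), the 12 largest called differences in each direction among protein-coding genes with a mean of at least 100 CPM in the higher group and no overlap between libraries, the 10 largest differences of contrasts, and Tet1 to Tet3. Members, lists and rule were chosen with earlier results of these data known. Apoe, Tpgs1, Cela1, the genes called in opposite directions and those of the last observations were added after their values were seen. Some genes of the lists are counted but not reported here by name. Alternatives were DESeq2 1.42.0, other scalings (RLE, library totals), no filter, a 2-fold null, 4-fold calls, a replicate block, a joint fit, and leaving out each library. The block took each replicate number within a genotype as its own term. Motif searches covered both strands of RefSeq promoters (GRCm38.p6).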

Additional observations from a re-analysis of the deposited data

Results flagged for a closer look

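In 5 of 108 groups of 4 libraries checked, 1 library stood apart from the other 3 beyond Dixon's 95% limit on the log2 scale, where chance gives about 1 in 20. They were Tet2 in Tet2-/- MEP 4 (7.02 CPM, the lowest), Mpo in Tet2-/- GMP 5 (26811 CPM, the highest), Gfi1 in Tet2-/- GMP 3 (29.3 CPM, the highest), Alad in Tet2-/- GMP 5 (73.2 CPM, the lowest) and Mef2c in Tet2-/- MEP 2 (5.08 CPM, the lowest).

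Other results stood out because the difference between GMP and MEP was not the same in the 2 genotypes by a test of that difference in edgeR, the value being Tet2-/- minus WT on the log2 scale. Of the 195 genes called, given here are the 10 largest, Itga2b from the lists, 7 genes called in opposite directions in the 2 genotypes, and Tpgs1 and Cela1, chosen after their values were seen. Those with counts in all 4 groups were Hist1h3g (5.24), Fkbp1b (5.08), Tpgs1 (4.43), Cela1 (4.31), Apoe (4.30), Lsm4 (3.31), Ndufab1 (3.05), Rps2 (2.87), Fam216a (2.50), Itga2b (2.30), Rfng (-2.83), Plbd2 (-2.85) and Lrrc8a (-4.85). Where a group was at 0 in all libraries the fitted value depends on the prior count: Gm38014 (7.17), Nol4 (6.08), Camkk1 (5.39) and Cib2 (4.86) were at 0 in Tet2-/- MEP, Cbarp (5.45) in WT GMP, and Mok (-5.28) and 5430400D12Rik (-4.79) in WT MEP.

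Tpgs1, which encodes a subunit of the tubulin polyglutamylase complex, stood at 13.9, 21.8, 47.6 and 32.3 CPM in Tet2-/- GMP and 2.36, 0.425, 0.527 and 0.932 CPM in Tet2-/- MEP, against 16.6 to 32.8 CPM in WT GMP and 8.25 to 34.1 CPM in WT MEP. Cela1, a chymotrypsin-like elastase, stood at 3.76 to 4.61 CPM in Tet2-/- GMP, 2.78 to 3.15 CPM in Tet2-/- MEP and 3.16 to 7.18 CPM in WT GMP, but at 85.2, 6.31, 112 and 65.3 CPM in WT MEP. Lrrc8a, a subunit of the volume-regulated anion channel, was at 0.0734 to 0.902 CPM in Tet2-/- GMP and at 25.7, 22.4, 23.4 and 0.340 CPM in WT GMP, where library 5 resembled the libraries labelled Tet2-/-.

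Leaving out each library in turn lost no call for Tpgs1, Cela1, Apoe, Plbd2, Rfng, Rps2, Ndufab1, Cib2, Mok and 5430400D12Rik, and the replicate block lost all of these. Lrrc8a lost its call in 14 of 16 such fits, Camkk1 and Nol4 in 14, Cbarp in 13, Lsm4, Fam216a and Hist1h3g in 11, Fkbp1b in 4 and Gm38014 in 2.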

How the results depend on the processing

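Of the 160 genes named and called between Tet2-/- GMP and MEP, 140 kept the call in all of the 12 alternatives run gene by gene that gave an adjusted p (DESeq2, RLE scaling, library totals, the replicate block and 8 fits without a library). DESeq2 gave none for 2 of the 160. None of the 160 changed sign in these, while 18 of the 94 tested and not called did, as did the medians of the megakaryocyte and dendritic cell lists (-0.03 to 0.74 and -0.62 to 0.56 without a library). DESeq2 and RLE scaling lost 0 of these calls, library totals 9, the replicate block 5 and leaving out a library 5 to 10. Over all genes, leaving out 1 library gave 2910 to 3656 higher and 1985 to 2232 lower in Tet2-/- GMP. DESeq2 gave 4151 and 2364, no filter 3468 and 2010, a joint fit of 16 libraries 3985 and 1994, a test against a 2-fold null 1976 and 1075, and calls of at least 4-fold 1903 and 627. In WT the 2-fold null gave 1825 and 929, and library totals 1273 lower.

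The difference of the contrasts was the least stable result, with a higher ratio of GMP to MEP in Tet2-/- for 122 genes and a lower one for 73. It gave 6 and 3 under a 2-fold null, 19 and 2 in a fit of all 46 libraries, 366 and 267 with DESeq2, 89 and 48 without the filter, 914 and 511 at an unadjusted p under 0.05, and 51 to 330 and 29 to 104 when 1 library was left out (330 without Tet2-/- MEP 2). The causes were not tested.

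The labels use the same numbers for GMP and MEP, but no source used here says that a shared number means the same mouse. The correlation of deviations between GMP and MEP of the same number was small. It was 0.08, 0.08, 0.01 and 0.05 in Tet2-/-, where 3 of 4 correlated best with their own number. In WT it was 0.09, 0.08, -0.04 and 0.03, where 2 of 4 did. The libraries were treated as unpaired. The block gave 3123 and 2094 calls in Tet2-/-, 2811 and 1946 in WT and 4 and 0 for the difference of contrasts.

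Library totals moved the median log2 difference of the cell cycle list to 0.48, DNA methylation to 1.39, erythroid effectors to -6.73 and haem to -0.83. Leaving out a library moved the median of B cell genes between 1.88 and 2.35, T and NK cell genes between 1.31 and 2.08, erythroid effectors between -7.50 and -6.80, mast cell genes between 3.85 and 6.74 (6.74 without Tet2-/- MEP 5) and receptors between 6.05 and 6.59. The first component held 80.2% of the variance over 2000 genes and 66.8% over all genes tested. Genes at or near 0 CPM in a population rest on few counts there, in libraries of 200 sorted cells, and their fold changes are imprecise.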

Other observations

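Some regulators kept their order between GMP and MEP while their level differed between the labelled genotypes. Spi1 stood at 32.6 to 36.6 CPM in Tet2-/- GMP and 178 to 245 CPM in WT GMP, and at 0.181 to 0.980 CPM in Tet2-/- MEP and 7.15 to 8.22 CPM in WT MEP, while GMP over MEP was 5.53 in Tet2-/- and 4.64 in WT on the log2 scale (difference 0.88, adjusted p = 0.404). Klf1 stood at 25.2 to 48.6 CPM in Tet2-/- MEP and 239 to 402 CPM in WT MEP, and its contrast was -5.70 and -7.62 (difference 1.92, adjusted p = 0.194). Il6ra, which encodes the interleukin 6 receptor, stood at 5.86 to 14.6 CPM in Tet2-/- GMP and 39 to 68.3 CPM in WT GMP. For all 3 genes the labelled genotypes did not overlap within these populations, but the share of all genes for which this holds is not given here. The choice of these genes was made once their values were known, and the genotype difference within a population was not tested here.

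The Tet2-/- CMP libraries lay between GMP and MEP for most markers of both poles. Mpo stood at 1964 ± 273 CPM (SD, n = 4) in CMP, Car1 at 3596 ± 1209 CPM, Gata1 at 110 ± 18.2 CPM and Cebpa at 14.5 ± 3.43 CPM. Pf4 was the exception among these, at 792 ± 382 CPM in CMP against 51.4 ± 38.6 CPM in GMP and 38.8 ± 24.1 CPM in MEP.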
